A study of Mus musculus with 8 samples.

Results

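The transcripts of the mitochondrial genome and the nuclear-encoded machinery that copies, transcribes and processes it were followed in RNA sequencing of mouse colonic organoids. The set held 42 genes, chosen by symbol from the 45777 genes of the deposited table. It contained all 13 protein genes of the mitochondrial chromosome and 29 nuclear factors of mitochondrial DNA replication, mitochondrial transcription and RNA processing, together with their nuclear regulators. No measured value entered the choice of members. All 42 had enough counts to be tested.

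Colonic organoids are epithelial cultures grown in Matrigel from isolated crypts. One group came from mice homozygous for Reg3a with loxP sites around exons 2 to 4 (Reg3afl/fl, called WT here as a control, 4 libraries, replicates 13 to 16). The other came from mice that also carried Cre recombinase driven by the Villin promoter, which is active in intestinal epithelium, so that Reg3a was removed there (Reg3aΔIEC, called KO, 4 libraries, replicates 5 to 8). The labels name C57BL/6J mice and give males of 9 weeks for both groups. All organoids were collected 3 days after a passage, within 15 passages, and received no added treatment. The labels describe the cultures both as wells from 1 mouse per genotype and as cultures of several mice, so the p-values may measure only the spread between wells. Genotype and the individual mouse or organoid line cannot be told apart.

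No library held a count for Reg3a itself (chromosome 6, 78380709 to 78383839, GRCm38; 0 in each of the 8), so its RNA does not check the genotype labels. Library totals ranged from 37182098 to 49256171 counts. Across all genes tested, 7.63% were called higher and 8.26% lower in KO (edgeR's quasi-likelihood test with Benjamini-Hochberg adjustment over 14945 genes, threshold 0.05), with a median log2 fold change of -0.0012. Of 13 colonic epithelial markers 5 were higher in KO and 1 lower, with a summed level of 12505 to 13143 CPM in KO and 11090 to 12083 in WT (CPM, counts scaled to a common library size). Among them Krt20, a keratin of mature colonocytes, rose by 0.76 ± 0.06 (SE) on the log2 scale (adjusted p = 6.29e-06, edgeR), Car1, a carbonic anhydrase of colonocytes, rose by 0.96 ± 0.06 (adjusted p = 1.41e-06, edgeR), and the stem cell receptor Lgr5 fell by 0.49 ± 0.05 (adjusted p = 5.99e-05, edgeR). Cdx2 and Vil1 were the next by adjusted p, at 0.33 ± 0.04 and 0.25 ± 0.05. The part of these epithelial differences in the mitochondrial results was not tested. Mesenchymal markers summed to at most 1.30 CPM in any library, endothelial markers to at most 1.32 CPM, and small intestinal and Paneth cell markers to at most 0.887 CPM. Immune markers summed to 28.8 to 34.4 CPM in KO and 30.7 to 43.3 CPM in WT, nearly all of it Cd68, a lysosomal protein of macrophages that was called lower in KO (log2 fold change -0.31 ± 0.09, adjusted p = 0.0399, edgeR). The other immune markers were low in both groups. Ptprc was at most 0.194 CPM, Itgam at 0.319 to 1.23 CPM and Cd79a at most 0.0633 CPM, and the T cell marker Cd3e was at 0 in every library. Which cells the Cd68 RNA came from was not tested.

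The mitochondrial genome is a small circle that carries 37 genes, of which 13 code for proteins, 2 for ribosomal RNAs and 22 for transfer RNAs. The proteins are core subunits of respiratory complexes I, III and IV and of the ATP synthase, complex V, which are completed by subunits encoded in the nucleus. Both strands are transcribed as long precursors by the RNA polymerase Polrmt with the factors Tfam and Tfb2m. The precursors are then cut, mostly at the transfer RNAs, so that single messengers and 2 messengers with overlapping reading frames are released. No transfer RNA lies between ATP6 and COX3. Most of the messengers are polyadenylated and held stable by an RNA-binding complex of Lrpprc and Slirp. In the colon, mitochondria of mature epithelial cells oxidise short-chain fatty acids made by bacteria.

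The 2 messengers with overlapping reading frames are shown because they differ in how far their genes changed, as given below. ATP8 and ATP6 share 43 bases, and ND4L and ND4 share 7 bases, written in capitals at the end of the first gene of each pair (GRCm38, plus strand, 5′ to 3′, GENCODE transcript sequences). The capitals begin with the start codon of the second gene. Reads within the shared bases cannot be assigned to 1 gene by position, and the sources used here do not say how they were counted.
ATP8 chrM:7766-7969: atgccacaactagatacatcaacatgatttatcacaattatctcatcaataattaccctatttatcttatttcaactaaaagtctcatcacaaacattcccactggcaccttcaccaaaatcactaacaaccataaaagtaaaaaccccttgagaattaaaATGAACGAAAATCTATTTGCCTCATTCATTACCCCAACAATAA
ND4L chrM:9877-10173: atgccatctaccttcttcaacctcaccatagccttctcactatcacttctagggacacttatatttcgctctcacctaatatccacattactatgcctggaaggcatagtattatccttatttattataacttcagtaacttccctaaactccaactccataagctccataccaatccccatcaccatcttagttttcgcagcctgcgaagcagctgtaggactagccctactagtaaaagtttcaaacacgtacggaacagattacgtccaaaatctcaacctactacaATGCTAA

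Messengers made from the mitochondrial chromosome were raised in KO organoids. Of the 13 protein genes 10 were called higher and 0 lower, against 7.63% and 8.26% of all genes tested. At an unadjusted p under 0.05 edgeR counted 12 higher and 0 lower. Such unadjusted counts, here and below, have no share of all genes at that threshold beside them. They cannot be set against the shares given, which are for adjusted p. DESeq2 and limma-voom each called 10 higher and 0 lower, where they called 8.91% and 7.49% of all genes higher and 9.04% and 7.82% lower. The median log2 fold change of the 13 was 0.48, with a range of 0.12 to 0.91, and all 13 were above 0. For 9 of them every KO library lay above every WT library, which was so for 9.91% of all genes tested. More mitochondrial RNA per cell and a larger share of cells rich in mitochondria cannot be told apart in bulk RNA. Levels below are CPM scaled for library composition (TMM), and a log2 fold change is KO against WT with its standard error.

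**Figure D1:**
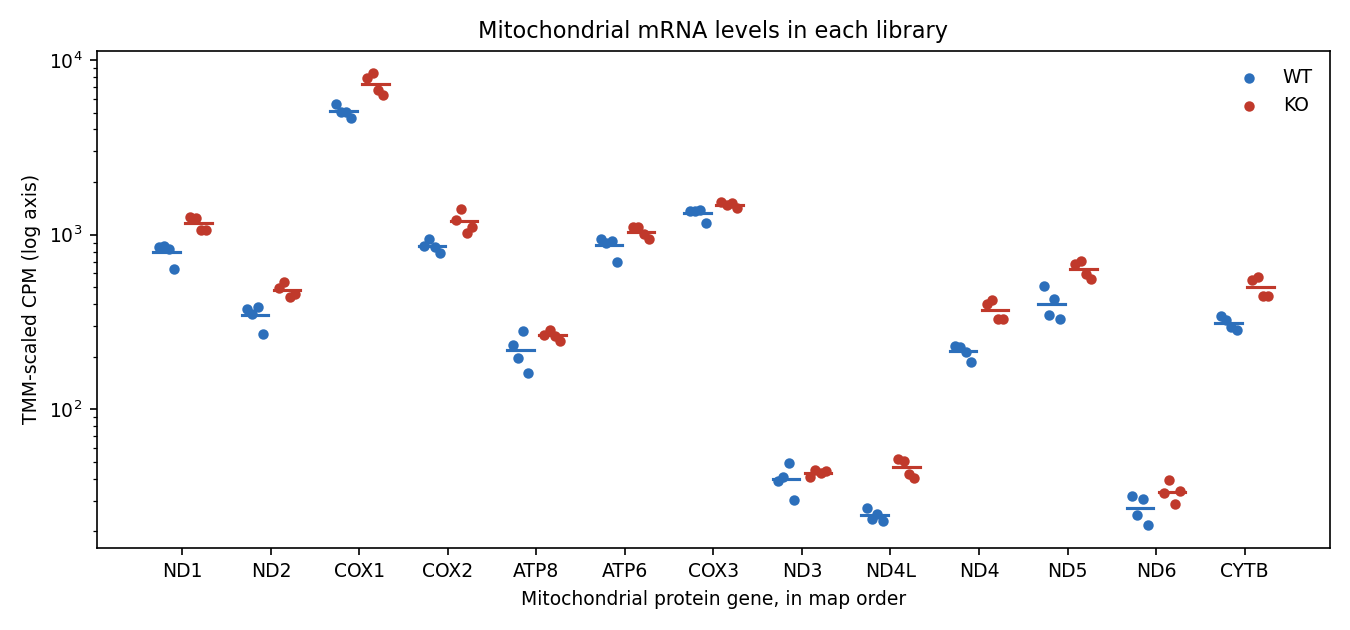
Level of each mitochondrial protein gene in each library, as TMM-scaled CPM on a log axis, with genes in map order. Points are libraries (4 WT in blue, 4 KO in red, drawn in order of replicate number) and bars are group means. The red points lie wholly above the blue ones for 9 genes and mix with them for ATP8, ATP6, ND3 and ND6.

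Complex I, which takes electrons from NADH, has 7 subunits encoded in the mitochondrion, and 5 of the 7 transcripts rose. ND4L (NCBI Gene ID 17720, mitochondrial chromosome, 9877 to 10173) measured 51.9, 50.6, 42.7 and 40.6 CPM in KO replicates 5 to 8 and 27.4, 23.7, 25.3 and 22.8 CPM in WT replicates 13 to 16. Its lowest KO library was well above its highest WT library, and the change was 0.91 ± 0.08 on the log2 scale, or 1.87-fold (adjusted p = 1.48e-05, edgeR). The ND4 gene (NCBI Gene ID 17719, 10167 to 11544), read from the same messenger, measured 402, 423, 327 and 330.3 CPM in KO and 232, 228, 213 and 187 CPM in WT. The groups were again apart, with replicates 5 and 6 highest in KO, and the change was 0.79 ± 0.09 (adjusted p = 6.25e-05, edgeR).

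ND5 (11742 to 13565), the largest of these subunits, measured 682, 707, 598 and 554 CPM in KO and 507, 345, 430.5 and 328 CPM in WT. WT replicate 13 came near the KO range without entering it, and the change was 0.66 ± 0.12 (adjusted p = 0.00187, edgeR). ND1, the first protein gene after the ribosomal RNAs (2751 to 3707), measured 1264, 1239.7, 1059.5 and 1069 CPM in KO and 844, 856, 829.6 and 639 CPM in WT. Its groups were apart, WT replicate 16 stood below the other WT libraries, and the change was 0.55 ± 0.09 (adjusted p = 7.67e-04, edgeR). ND2 (3914 to 4951) measured 493, 539, 437 and 458 CPM in KO and 376, 352, 386 and 269.7 CPM in WT. It had the same order of groups and the same low WT library, with a change of 0.48 ± 0.09 (adjusted p = 0.00385, edgeR).

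The other two complex I transcripts were not called. ND3 (9459 to 9806) measured 40.8, 44.99, 43.0 and 44.3 CPM in KO and 38.7, 40.8, 49.2 and 30.2 CPM in WT, so that the WT libraries spanned the whole KO range. Its log2 fold change was 0.12, with a 95% interval of -0.11 to 0.35 (adjusted p = 0.509, edgeR). ND6 (13552 to 14070), the sole protein gene of the minus strand, measured 33.1, 39.2, 28.7 and 33.9 CPM in KO and 31.7, 24.8, 30.8 and 21.7 CPM in WT. Its groups overlapped, with a log2 fold change of 0.31 and an interval of 0.06 to 0.55 (adjusted p = 0.0861, edgeR). ND6 passed the threshold without WT replicate 15 (0.37, adjusted p = 0.0463, edgeR) and with a smooth on GC content and length (0.31, adjusted p = 0.00917, edgeR). ND5 and ND6 overlap at their ends on opposite strands, and the sources used here do not say whether counting used the strand.

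Complex III passes electrons to cytochrome c, and its one mitochondrial subunit is cytochrome b. CYTB (NCBI Gene ID 17711, 14145 to 15288) measured 547, 571, 445 and 446 CPM in KO and 344, 323, 297 and 285 CPM in WT. No WT library reached the KO range, and the transcript rose by 0.68 ± 0.08 (adjusted p = 1.15e-04, edgeR).

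Complex IV, cytochrome c oxidase, reduces oxygen, and all 3 of its mitochondrial transcripts were called higher. COX1 (NCBI Gene ID 17708, 5328 to 6872), the catalytic subunit, measured 7904, 8379, 6689 and 6282 CPM in KO and 5585, 5045, 5040.2 and 4667 CPM in WT. It had the highest level per length of the 13 in every library, and it rose by 0.52 ± 0.08 (adjusted p = 6.25e-04, edgeR). COX2 (7013 to 7696), which binds cytochrome c, measured 1217, 1406, 1024 and 1109.6 CPM in KO and 858, 938, 844 and 788 CPM in WT. The groups were apart and the change was 0.47 ± 0.08 (adjusted p = 0.00143, edgeR).

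COX3 (8607 to 9390) differed less. It measured 1532, 1468, 1519 and 1426 CPM in KO and 1372, 1362, 1388 and 1166 CPM in WT, a change of 0.17 ± 0.05 (adjusted p = 0.0413, edgeR). The groups did not overlap, but KO replicate 8 and WT replicate 15 lay close together. The call was lost without KO replicate 5 (adjusted p = 0.123), 6 (0.0707), 7 (0.111) or 8 (0.0588), without WT replicate 13 (0.0583) and without a filter on low counts (0.0667, all edgeR).

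Complex V makes ATP, and its 2 mitochondrial subunits lie in the membrane part. ATP6 (7927 to 8607), part of the proton channel, measured 1101, 1102, 1012 and 949.3 CPM in KO and 949.7, 898, 921 and 699 CPM in WT. The groups met at KO replicate 8 and WT replicate 13, and the change was 0.26 ± 0.08 (adjusted p = 0.0407, edgeR). Its call was lost without KO replicate 5 (adjusted p = 0.123), 6 (0.104) or 7 (0.0760) and without a filter on low counts (0.0670, all edgeR). ATP8 (7766 to 7969), on the same messenger, measured 268, 284, 262 and 247 CPM in KO and 235, 197, 281 and 160.5 CPM in WT. WT replicate 15 lay among the KO libraries, and the log2 fold change of 0.28 had an interval of 0.02 to 0.54 (adjusted p = 0.147, edgeR). ATP8 was called higher without WT replicate 15 (0.43, adjusted p = 0.00819, edgeR) and with that smooth (0.24, adjusted p = 0.00203, edgeR).

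The 13 transcripts did not change by one common factor. Along the map, the log2 fold changes were 0.47 to 0.55 from ND1 to COX2, 0.12 to 0.28 in the next 4 genes, ATP8, ATP6, COX3 and ND3, and 0.66 to 0.91 in ND4L, ND4, ND5 and CYTB. No test was made of these stretches, which were drawn after their values were seen. Both genes of each messenger with overlapping frames had similar changes, 0.28 and 0.26 for ATP8 and ATP6 and 0.91 and 0.79 for ND4L and ND4. The count ratio of ND4 to ND4L was 7.97 ± 0.330 for KO and 8.68 ± 0.659 for WT (SD, n = 4), and that of ATP6 to ATP8 was 3.92 ± 0.123 and 4.06 ± 0.562, with overlapping libraries in both cases.

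**Figure D2:**
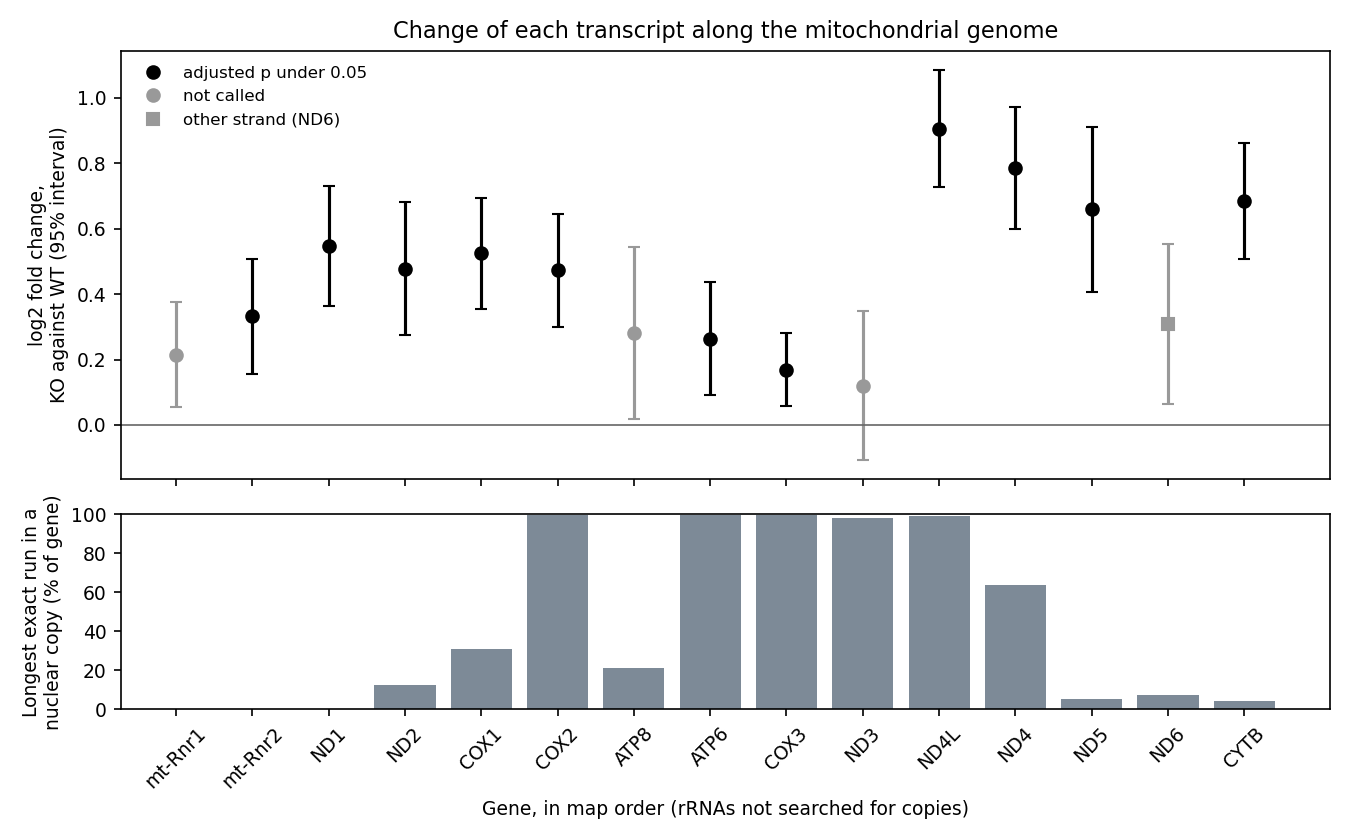
Upper panel: log2 fold change of each mitochondrial ribosomal RNA and protein gene in map order, KO against WT, with 95% intervals, black where the adjusted p was under 0.05 and a square for ND6 on the other strand. Lower panel: the longest stretch of each protein gene found without mismatch in an annotated nuclear copy, in percent of the gene's length. The change falls from ATP8 to ND3 and is highest at ND4L, whereas COX2, ATP6, COX3, ND3 and ND4L all have a nearly full-length stretch without mismatch.

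Neighbours on either side of the transfer RNA between ND3 and ND4L stood far apart. The count ratio of ND4L to ND3 was 1.27, 1.13, 0.994 and 0.918 in KO replicates 5 to 8 and 0.708, 0.580, 0.513 and 0.757 in WT replicates 13 to 16. No WT ratio reached the lowest KO ratio, and the mean ratio was 1.08 in KO and 0.639 in WT. ND4 relative to COX3 gave 0.249 ± 0.0324 for KO and 0.163 ± 0.00717 for WT (SD, n = 4), again without overlap. The ratio of CYTB to its minus-strand neighbour ND6 was 14.9 ± 1.42 in KO and 11.7 ± 1.71 in WT. The libraries of the groups did not overlap, but KO replicate 8 (13.16) and WT replicate 16 (13.13) nearly met. These ratios were chosen after the fold changes were seen and carry no test.

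As a share of the 13, the composition differed between groups in 5 genes whose libraries did not overlap. ND4L took 0.319% ± 0.0103 of the counts of the 13 in KO and 0.236% ± 0.0101 in WT (SD, n = 4). ND4 took 2.54% ± 0.0809 and 2.04% ± 0.0718, and CYTB 3.44% ± 0.101 and 2.98% ± 0.140. These 3 shares were larger in KO, and those of COX3 and ATP6 were smaller. COX3 fell from 12.6% ± 0.396 in WT to 10.3% ± 1.03 in KO, and ATP6 from 8.22% ± 0.463 to 7.17% ± 0.310. For ATP6, KO replicate 7 (7.50%) and WT replicate 16 (7.55%) nearly met. COX1 made up the bulk, with 50.1% ± 1.41 in KO and 48.4% ± 1.56 in WT, and its shares overlapped.

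**Figure D3:**
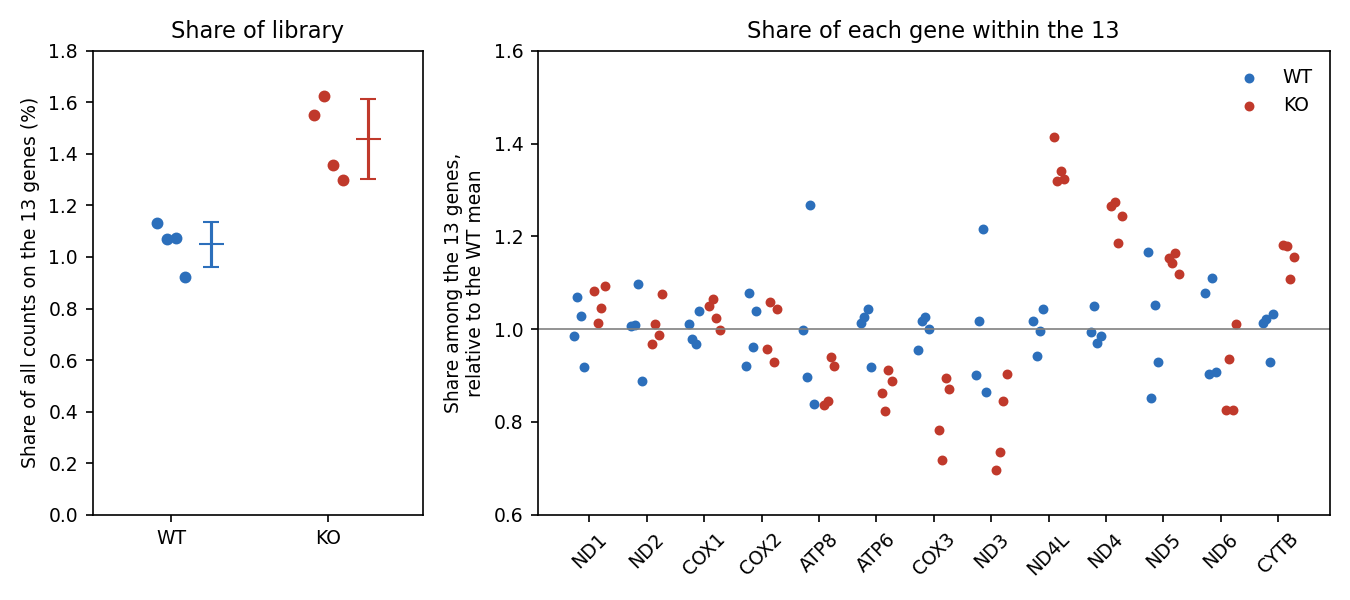
Left: percent of all counts on the 13 mitochondrial protein genes in each library, with mean and SD (n = 4) beside the points. Right: share of each gene among the counts of the 13, divided by the WT mean, in map order. Left, KO libraries lie at 1.30% to 1.62% and WT libraries at 0.923% to 1.13%. Right, ND4L, ND4 and CYTB are wholly higher in KO, and ATP6 and COX3 wholly lower.

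The 13 genes held 1.55%, 1.62%, 1.36% and 1.30% of all counts in KO replicates 5 to 8 and 1.13%, 1.07%, 1.07% and 0.923% in WT replicates 13 to 16. Every KO library exceeded every WT library, and the ratio of means was 1.39, given without a test. With the authors' TPM the shares were 2.85% ± 0.237 in KO and 2.08% ± 0.217 in WT (SD, n = 4). Protein-coding genes of both genomes took 97.4% of counts in KO and 97.7% in WT. WT replicate 16, which is also the library with the fewest counts, had the lowest level within WT for 13 of 13 genes. KO replicate 6 had the highest within KO for 10 of 13. The ratio of shares was 1.34 without WT replicate 16 and 1.34 without KO replicate 6.

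Compared per length, the 13 transcripts covered a wide range. The authors' FPKM, which divides by transcript length, was highest for COX1 at 4086 ± 507 in KO and 2851 ± 239 in WT (SD, n = 4). COX3 and COX2 followed at 1638 and 1501 FPKM in KO, then ATP6 at 1320, ATP8 at 1123 and ND1 at 1045. A lower tier held ND2 at 401, CYTB at 379, ND5 at 301, ND4 at 232, ND4L at 135, ND3 at 107 and ND6 at 56.1 FPKM in KO. ND4L and ND3 exchanged places between groups, since WT had 99.1 ± 21.6 FPKM for ND3 and 72.3 ± 6.75 for ND4L. Mean levels of the 29 nuclear members ran from 2.59 FPKM for Ppargc1b in WT to 42.6 FPKM for Slirp, which was close to ND6 at 45.5 ± 8.76 FPKM in WT.

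Parts of the mitochondrial genome have near-identical copies in the nuclear genome, and reads from such stretches are uncertain in their origin. A search of GENCODE transcripts for copies with at least 90% identity found none for ND1. For COX3, 99.9% of the gene occurred without mismatch in the pseudogene Gm28437 on chromosome 1. Pseudogenes annotated in the same cluster (chromosome 1, 24611535 to 24616197, minus strand, GRCm38) held 99.6% of COX2 and of ATP6, 99.0% of ND4L, 98.3% of ND3, 63.6% of ND4, 31.0% of COX1 and 21.1% of ATP8. The match of ATP8 is the 43 bases that it shares with ATP6. Only annotated transcripts were searched, so bases between or beside the pseudogenes were not covered. The genome itself may hold more of a gene than these percentages give, ATP8 included. In ND2, ND5, ND6 and CYTB the longest such stretch was 12.4%, 5.21%, 7.51% and 4.11% of the gene. Their copies with mismatches were longer. CYTB aligned over 1142 of 1144 bases at 92.9% identity and ND6 over 519 of 519 at 93.6%. ND5 aligned over 1055 of 1824 bases at 92.4% and ND2 over 510 of 1038 at 96.7%. Of the genes with no or short stretches free of mismatch, ND1, ND2, ND5 and CYTB rose by 0.48 to 0.68 and ND6 was not called at 0.31. Among genes with nearly full-length stretches free of mismatch the log2 fold change ran from 0.12 (ND3) to 0.91 (ND4L). The sources used here do not say how reads with several alignments were counted, and the part of the copies in the result was not tested.

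Genes of the mitochondrial chromosome outside the 13 were mostly near the limit of detection. The libraries were made with a kit for messenger RNA, which enriches polyadenylated RNA, so ribosomal and transfer RNA values describe only what was captured. The same limit holds for any messenger without a regular tail, and the part of tails in the levels of the 13, ND6 included, was not tested. Of the 24 genes outside the 13, 10 were tested. EdgeR called 3 (30%) higher and 0 lower, against 7.63% and 8.26% of all genes tested. An unadjusted p under 0.05 was reached by 5 higher and 0 lower with edgeR. DESeq2 called 4 higher and limma-voom 3, with 0 lower in both, where they called 8.91% and 7.49% of all genes higher and 9.04% and 7.82% lower. The large ribosomal RNA mt-Rnr2 measured 589, 645, 560 and 605 CPM in KO and 509, 493, 524 and 379 CPM in WT. All KO libraries lay above all WT libraries, and the change was 0.33 ± 0.08 (adjusted p = 0.0142, edgeR). The small ribosomal RNA mt-Rnr1 overlapped between groups, with a mean of 465 ± 35.3 CPM for KO against 400.5 ± 45.4 for WT (SD, n = 4) and a log2 difference of 0.21, interval 0.05 to 0.37 (adjusted p = 0.0686, edgeR). The number of counts on the 13 protein genes for each count on the 2 ribosomal RNAs was 13.7 ± 1.05 in KO and 12.1 ± 0.800 in WT, and the libraries overlapped.

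Among transfer RNAs, TrnL1, which lies between mt-Rnr2 and ND1, averaged 3.67 ± 0.308 CPM over KO and 2.69 ± 0.339 over WT (SD, n = 4), a change of 0.44 ± 0.13 (adjusted p = 0.0283, edgeR). TrnS1 is encoded on the minus strand (6870 to 6938) and its annotation overlaps the end of COX1. It measured 33.0, 36.8, 33.4 and 26.5 CPM in KO and 27.0, 28.5, 20.2 and 19.9 CPM in WT. The groups overlapped through KO replicate 8, and the change was 0.44 ± 0.12 (adjusted p = 0.0253, edgeR). TrnI had 0.479 ± 0.111 CPM in KO and 0.269 ± 0.0193 in WT and was not called (adjusted p = 0.0706, edgeR). TrnW, TrnA, TrnM, TrnG and TrnQ were not called either, with adjusted p from 0.316 to 0.852 (edgeR). The other 14 transfer RNAs stayed below 0.4 CPM in every library and were not tested.

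Of the 29 nuclear factors 3 (10.3%) were called higher and 1 (3.45%) lower in KO, against 7.63% and 8.26% of all genes tested, so the number of calls was near the background. Their median log2 fold change was 0.0036, with a range of -0.29 to 0.27, and 15 of 29 were above 0. Every KO library lay above every WT library for 3 of the 29, and below for 2, against 9.91% and 10.3% of all genes tested. The difference between the 13 mitochondrial and the 29 nuclear genes was not tested.

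**Figure D4:**
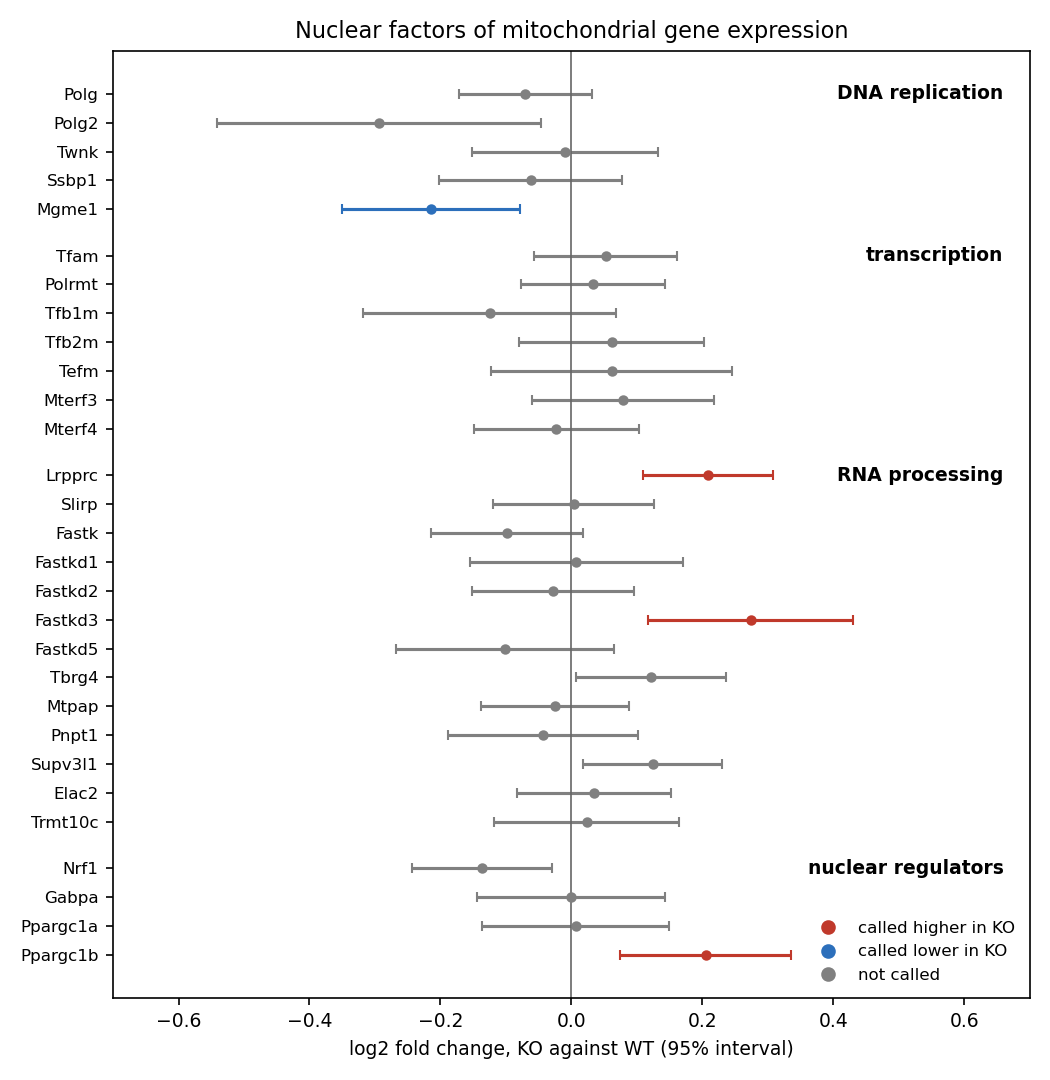
Log2 fold change of the 29 nuclear factors, KO against WT, with 95% intervals, ordered by role. Red marks genes called higher, blue the gene called lower and grey genes not called. Lrpprc, Fastkd3 and Ppargc1b lie above 0, Mgme1 lies below, and the 7 transcription factors all have intervals that include 0.

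All 5 factors of mitochondrial DNA replication had log2 fold changes below 0, from -0.29 to -0.01. Of these, 1 (20%) was called lower and 0 higher, against 8.26% and 7.63% of all genes tested. Mgme1 (chromosome 2, 144270904 to 144281227), an exonuclease that trims the ends of replicating mitochondrial DNA, measured 16.3, 14.6, 13.9 and 14.5 CPM in KO and 17.2, 16.7, 17.2 and 17.7 CPM in WT. The groups did not overlap and the transcript fell by 0.21 ± 0.06 on the log2 scale (adjusted p = 0.0338, edgeR). The call was lost without KO replicate 6 (adjusted p = 0.0737), 7 (0.107) or 8 (0.0984), without WT replicate 13 (0.0759) or 16 (0.0694) and without a filter on low counts (0.0572, all edgeR). Polg2, the accessory subunit of DNA polymerase gamma, averaged 6.05 ± 0.865 CPM over KO against 7.44 ± 0.839 over WT (SD, n = 4), with a log2 fold change of -0.29 and an interval of -0.54 to -0.05 (adjusted p = 0.104, edgeR). It passed the threshold without KO replicate 6 (-0.40, adjusted p = 0.0301, edgeR) and without WT replicate 14 (-0.37, adjusted p = 0.0384, edgeR). Polg, the catalytic subunit, the helicase Twnk and the single-strand binding protein Ssbp1 had log2 fold changes of -0.07, -0.01 and -0.06, with adjusted p of 0.366, 0.952 and 0.594 (edgeR).

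Of the 7 transcription factors 0 were called by edgeR, DESeq2 or limma-voom, and 0 had an unadjusted p under 0.05 in edgeR. Of all genes edgeR called 7.63% higher and 8.26% lower, DESeq2 8.91% and 9.04%, and limma-voom 7.49% and 7.82%. With 7 genes, 0 calls cannot be told from these shares. Tfam, which packages mitochondrial DNA and opens its promoters, measured 47.3, 45.3, 43.4 and 48.1 CPM in KO and 41.96, 44.3, 46.6 and 44.7 CPM in WT. The groups were mixed, and the log2 fold change of 0.05 had an interval of -0.06 to 0.16 (adjusted p = 0.558, edgeR). Polrmt measured 20.2, 20.3, 20.3 and 19.3 CPM in KO and 19.8, 19.96, 18.9 and 19.7 CPM in WT, a log2 fold change of 0.03 with an interval of -0.08 to 0.14 (adjusted p = 0.737, edgeR). Tfb2m, the initiation factor, gave 0.06 (interval -0.08 to 0.20) and Tefm, the elongation factor, gave 0.06 (-0.12 to 0.25). Tfb1m, a methyltransferase of the small ribosomal RNA, gave -0.12 (-0.32 to 0.07). Mterf3 and Mterf4, of the mitochondrial termination factor family, gave 0.08 (-0.06 to 0.22) and -0.02 (-0.15 to 0.10).

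RNA processing and stability factors included 2 of 13 (15.4%) that rose, against 7.63% of all genes tested. Lrpprc (chromosome 17, 84705247 to 84790786), which binds and stabilises mitochondrial messengers, measured 65.0, 66.2, 70.6 and 66.5 CPM in KO and 58.5, 55.2, 58.6 and 60.0 CPM in WT. The groups were apart, and it rose by 0.21 ± 0.05 (adjusted p = 0.00728, edgeR). This call was kept in all 19 alternative analyses. Slirp, its partner protein, averaged 20.7 ± 1.14 CPM over KO and 20.6 ± 0.768 over WT (SD, n = 4), with a log2 fold change of 0.0036 and an interval of -0.12 to 0.13.

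Fastkd3 (chromosome 13, 68582167 to 68592338), of the FASTK family of mitochondrial RNA-binding proteins, measured 16.1, 14.6, 15.4 and 15.7 CPM in KO and 12.3, 13.5, 13.9 and 11.4 CPM in WT. No libraries overlapped and the change was 0.27 ± 0.07 (adjusted p = 0.0213, edgeR). Its call was lost without KO replicate 5 (adjusted p = 0.0688), 7 (0.0521) or 8 (0.0624) and without WT replicate 13 (0.0653, all edgeR). The rest of the family, Fastk, Fastkd1, Fastkd2, Fastkd5 and Tbrg4, was not called, with log2 fold changes from -0.10 (Fastkd5) to 0.12 (Tbrg4). Supv3l1, the helicase of the mitochondrial RNA degradosome, measured 34.6, 36.3, 34.4 and 37.2 CPM in KO and 32.1, 33.8, 33.5 and 31.4 CPM in WT. Its groups were narrowly apart, but it was not called at 0.12 ± 0.05 (adjusted p = 0.110, edgeR). Pnpt1, the exoribonuclease of the same complex, gave -0.04 (interval -0.19 to 0.10), and the poly(A) polymerase Mtpap gave -0.02 (-0.14 to 0.09). Trmt10c, a subunit of the enzyme that cuts transfer RNAs at their 5′ end, gave 0.02 (-0.12 to 0.16). Elac2, which cuts at their 3′ end, gave 0.03 (-0.08 to 0.15).

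Of 4 nuclear regulators of mitochondrial genes 1 (25%) was called higher and 0 lower, against 7.63% and 8.26% of all genes tested. Ppargc1b, a coactivator of mitochondrial biogenesis, measured 34.7, 32.4, 38.7 and 36.7 CPM in KO and 31.7, 29.6, 29.9 and 32.5 CPM in WT. KO replicate 6 and WT replicate 16 overlapped, and the change was 0.21 ± 0.06 (adjusted p = 0.0349, edgeR). The call was lost without KO replicate 5 (adjusted p = 0.0614), 7 (0.121) or 8 (0.107), without WT replicate 13 (0.0633), 14 (0.0771) or 15 (0.0578) and without a filter on low counts (0.0501, all edgeR). Its relative Ppargc1a gave 0.0063 with an interval of -0.14 to 0.15. Nrf1, a transcription factor of nuclear genes for mitochondrial proteins, measured 29.3, 31.4, 31.0 and 31.2 CPM in KO and 34.7, 31.9, 33.7 and 34.9 CPM in WT. All KO libraries lay below all WT libraries, but it was not called at -0.14 ± 0.05 (adjusted p = 0.0813, edgeR). Gabpa, the DNA-binding subunit of the ETS-type factor NRF2/GABP, averaged 59.5 ± 1.74 CPM over KO and 59.5 ± 6.54 over WT (SD, n = 4).

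**Figure D5:**
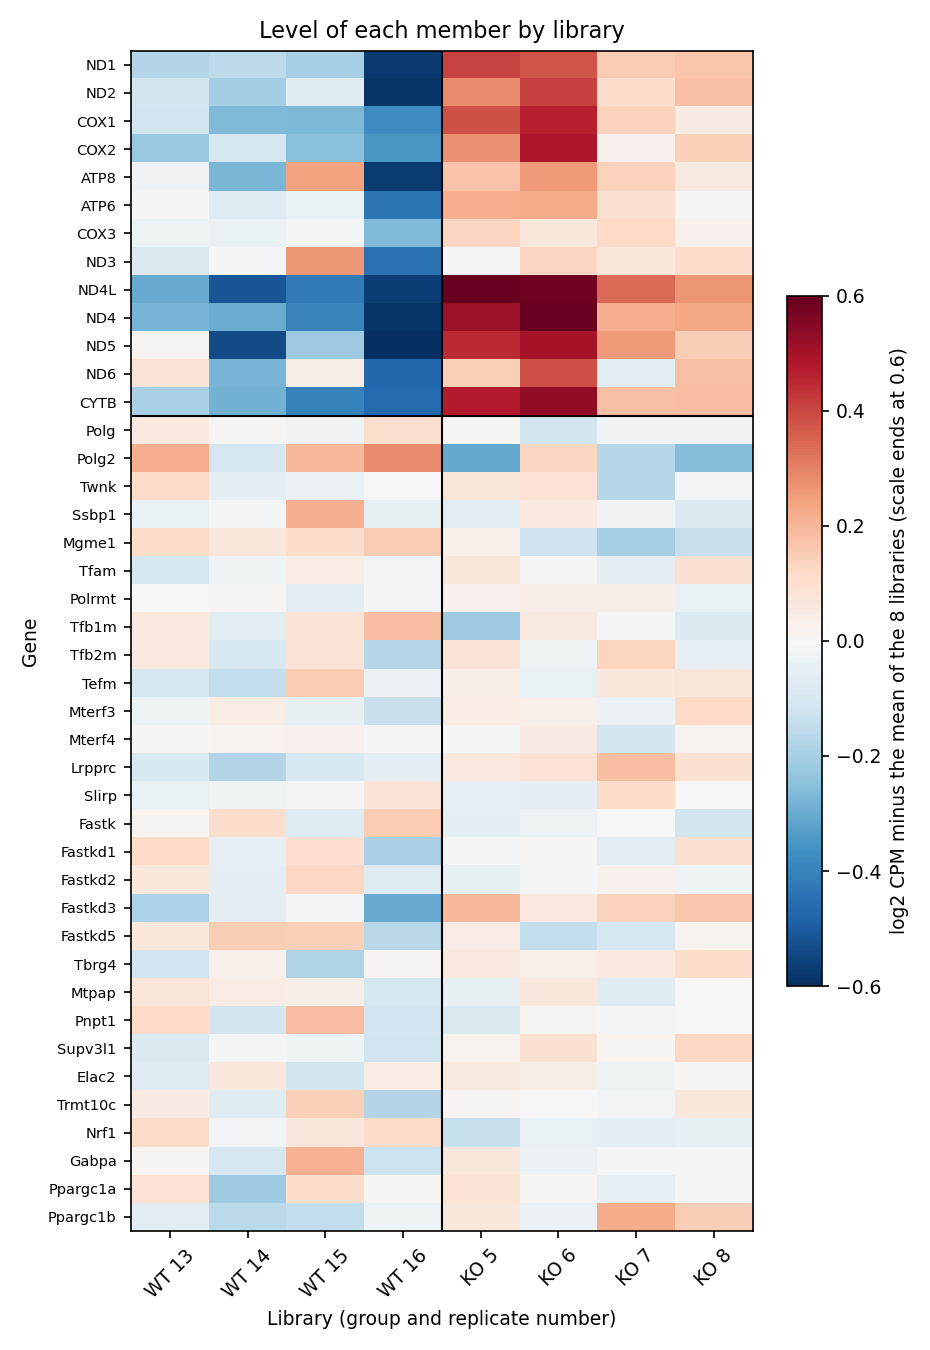
Log2 CPM of each of the 42 members in each library minus its mean over the 8 libraries, red above and blue below, with the 13 mitochondrial genes above the black line and the 29 nuclear ones under it. Most fields of the mitochondrial genes are blue in WT, darkest in replicate 16, and red in KO, darkest in replicates 5 and 6, and the nuclear rows are paler.

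Promoters of the nuclear members were searched for the letters of the sites of 2 of these regulators, GCGCA and GCGC with 1 free base between them for Nrf1 and CCGGAAG for ETS-type factors such as Gabpa, on both strands, in windows from 250 bases before to 50 bases after the start of transcription (RefSeq, GRCm38.p6). The table matched 26 of the 29 genes with 28 promoters. The ETS letters occurred in 14 of the 28 (50%), against 8.86% of all 32851 promoters. The Nrf1 letters occurred in 2 (7.14%), those of Fastkd3 and Polrmt, against 4.60% of all. A match is a description of the letters, not a measured binding site. Tfam and Polrmt are shown as the basal transcription factors that were not called, and Fastkd3 as a called gene with matches, with both motifs in capitals, overlapping ones joined, 5′ to 3′ in the direction of the gene.
Tfam chr10:71237995-71238294, minus strand: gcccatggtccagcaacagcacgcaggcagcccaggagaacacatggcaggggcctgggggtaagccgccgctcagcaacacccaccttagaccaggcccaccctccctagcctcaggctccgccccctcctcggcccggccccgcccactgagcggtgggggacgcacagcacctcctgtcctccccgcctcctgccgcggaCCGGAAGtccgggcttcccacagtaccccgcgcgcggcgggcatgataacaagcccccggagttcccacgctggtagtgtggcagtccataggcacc
Polrmt chr10:79746532-79746831, minus strand: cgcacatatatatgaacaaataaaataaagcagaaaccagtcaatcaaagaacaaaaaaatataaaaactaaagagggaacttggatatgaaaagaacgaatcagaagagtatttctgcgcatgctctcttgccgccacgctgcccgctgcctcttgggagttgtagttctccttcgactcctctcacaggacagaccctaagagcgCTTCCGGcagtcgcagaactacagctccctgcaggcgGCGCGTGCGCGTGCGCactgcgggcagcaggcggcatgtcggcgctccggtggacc
Fastkd3 chr13:68581960-68582259, plus strand: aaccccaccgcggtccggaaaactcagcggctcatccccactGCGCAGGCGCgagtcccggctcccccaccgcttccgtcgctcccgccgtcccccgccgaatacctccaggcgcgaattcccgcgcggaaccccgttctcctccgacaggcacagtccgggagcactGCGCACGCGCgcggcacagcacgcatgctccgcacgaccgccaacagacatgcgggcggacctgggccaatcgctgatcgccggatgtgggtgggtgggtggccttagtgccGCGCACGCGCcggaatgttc

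Tfam has 1 ETS match, Polrmt 2 overlapping Nrf1 matches and 1 ETS match, and Fastkd3 3 Nrf1 matches. The 3 genes were picked with their calls known, so they cannot show whether matches go with calls. The called genes Lrpprc and Mgme1 had neither motif, and no promoter of the called gene Ppargc1b was matched. The genes with the ETS letters were all among those not called.

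Further factors of mitochondrial RNA and DNA, other than the members, were read from the same fit, in which 7.63% of all genes were higher and 8.26% lower. DESeq2 called 8.91% of all genes higher and 9.04% lower, and limma-voom 7.49% and 7.82%. Of 29 genes for other RNA processing and modification steps edgeR called 0, with 3 higher and 1 lower at an unadjusted p under 0.05, DESeq2 called 1 higher and limma-voom 0. Their median log2 fold change was 0.05. The most abundant, the RNA methyltransferase Nsun2 and the RNA granule protein Grsf1, gave -0.03 (interval -0.12 to 0.05) and -0.07 (-0.16 to 0.03). Of 21 genes for mitochondrial DNA maintenance and nucleotide supply 2 (9.52%) were higher and 0 lower, with a median of -0.02. An unadjusted p under 0.05 was reached by 3 higher and 4 lower in edgeR, DESeq2 called 2 higher and 0 lower, and limma-voom 1 higher and 0 lower. Suclg2, a subunit of succinyl-CoA ligase, rose by 0.19 ± 0.04 (adjusted p = 0.00294, edgeR), and the pyrimidine nucleotide carrier Slc25a36 rose by 0.20 ± 0.06 (adjusted p = 0.0468, edgeR).

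Nuclear subunits of the same complexes were set beside the mitochondrial ones. Of 27 tested, 0 were higher and 2 (7.41%) lower in edgeR, against 7.63% and 8.26% of all genes tested, so the share called lower was near the background. There were 1 higher and 3 lower at an unadjusted p under 0.05 in edgeR. DESeq2 called 1 higher and 3 lower, against 8.91% and 9.04% of all genes, and limma-voom 0 higher and 2 lower, against 7.49% and 7.82%. For complex I the median log2 fold change was 0.55 over the 7 mitochondrial genes and 0.0025 over 9 nuclear ones. For complex IV it was 0.47 over 3 mitochondrial and -0.04 over 7 nuclear genes, and for complex V 0.27 over 2 and -0.02 over 6. CYTB, at 0.68, stood beside 5 nuclear genes of complex III with a median of 0.03. Ndufs8, an iron-sulfur subunit of complex I, fell by 0.19 ± 0.05 (adjusted p = 0.0187, edgeR), and Cox7c, a small subunit of complex IV, fell by 0.12 ± 0.04 (adjusted p = 0.0470, edgeR). These medians are descriptions and were not compared by a test.

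Genes for mitochondrial mass, import and dynamics numbered 22, with a median log2 fold change of 0.02. Of these, edgeR called 1 (4.55%) higher and 1 (4.55%) lower, against 7.63% and 8.26% of all genes tested. An unadjusted p under 0.05 was reached by 4 higher and 2 lower in edgeR. DESeq2 called 3 higher and 1 lower, against 8.91% and 9.04% of all genes, and limma-voom 1 higher and 1 lower, against 7.49% and 7.82%. Mfn2, which fuses outer membranes, rose by 0.20 ± 0.04 (adjusted p = 0.00589, edgeR). Lonp1, the matrix protease that also degrades Tfam, fell by 0.19 ± 0.05 (adjusted p = 0.0106, edgeR). Citrate synthase, Cs, a matrix enzyme often used to gauge mitochondrial content, was picked after its values were seen and averaged 765 ± 16.5 CPM over KO and 759 ± 26.8 over WT (SD, n = 4). The difference on the log2 scale was 0.01 with an interval of -0.07 to 0.09.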

How the data were processed

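RNA sequencing of 8 organoid libraries was analysed from 1 deposited table. The deposited counts are raw whole numbers for each gene in each library. The FPKM and TPM values in the same table were made by the authors and used only for description. The authors used Bowtie2, TopHat, TopHat2, HTSeq and GRCm38, per the submitters' processing notes, which give no version or role. Per the labels' protocols, RNA with an integrity number above 7.0 went into stranded messenger RNA libraries. Libraries were grouped by genotype label.

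The quasi-likelihood test of edgeR (version 4.0.16, R 4.3.3) was run over the whole table (45777 genes, 14945 left by filterByExpr) with TMM scaling, Benjamini-Hochberg adjustment and a threshold of 0.05. Standard errors of log2 fold changes were derived from the F statistic (absolute change over the root of F). Alternatives were other scalings, DESeq2 1.42.0, limma-voom (limma 3.58.1), other filters, a threshold of 0.01, leaving out each library in turn, and, chosen after seeing the data, an offset smoothed over GC content and transcript length in each library (mgcv 1.9.3) for 12582 genes (84.2%). The edgeR step was tested on simulated counts. Python 3.11.15 and matplotlib 3.10.9 were used for sequences and plots. Of 176 listed genes 175 were matched, and Atp5f1 was not. Totals of 37182098 to 49256171 counts set the precision, and a count of 0 allows up to 3 counts, for counting error only.

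The members, lists, tests and the rule for named genes were chosen with earlier results of these data known. The rule names all members, up to 4 called genes of each other list or its 2 most abundant where none passed, and mitochondrial genes with counts. Library pairs within a genotype differed by more than counting noise, and more so in WT. Chi-square per degree of freedom was 4.96 to 10.7 in KO and 11.1 to 24.7 in WT. Read sequences, other tissues and protein data were not analysed here.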

Additional observations from a re-analysis of the deposited data

Results flagged for a closer look

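In 4 of the 90 groups of 4 libraries examined (42 members and 3 library measures in each genotype), 1 library stood far from the other 3, with a gap above Dixon's 95% critical value. Chance gives about 1 in 20 such groups, so 4 is no more than chance would give. ND1 was lowest in WT replicate 16, at 639 CPM, with the other WT libraries at 829.6 to 856 CPM. COX3 was lowest in the same library, at 1166 CPM against 1362 to 1388 CPM. Ssbp1 was highest in WT replicate 15, at 30.9 CPM against 25.9 to 26.4 CPM. Polrmt was lowest in KO replicate 8, at 19.3 CPM against 20.2 to 20.3 CPM.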

How the results depend on the processing

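The number of mitochondrial protein genes called stayed between 8 and 12 of 13 in the 19 alternatives, all of them higher in KO. Its range was also 8 to 12 when each library was left out. The share of all genes called higher was 7.63% in the main fit. It ran from 3.76% to 11.8% in the alternatives, and from 4.59% to 9.20% when each library was left out. ND1, ND2, ND4, ND4L, ND5, CYTB, COX1, COX2 and Lrpprc kept their call in all 19, and no call reversed. Over the 42 members and 19 alternatives, 756 values kept their direction where called and their side of the threshold, 32 lost a call and 10 gained one. Calls among the 29 nuclear factors went from 4, where 15.9% of all genes were called, to 2 without a low-count filter (8.33% of all genes). They went to 1 at an adjusted p of 0.01 (7.76%) and to between 1 and 4 when each library was left out (9.37% to 18.5%). With the GC and length smooth they went to 8 (5 higher, 3 lower), where 26.8% of the 12582 genes with both values were called. Without the smooth, 19.2% of the same genes were called. With the smooth, calls were gained by ND6, ATP8, Polg, Tbrg4, Supv3l1 and Nrf1, at adjusted p of 0.00917, 0.00203, 0.0316, 0.0119, 0.0468 and 0.0199 (edgeR). Over all genes, 2374 calls became 1159 at an adjusted p of 0.01 and 1420 to 2790 when each library was left out. The lower counts without a filter come with more genes tested (22983), and those without a library with fewer samples. For the other changes the cause was not tested. Scalings moved the median of all genes by at most 0.0038. The ratio of shares of counts on the 13 was 1.39, 1.37 with TPM and 1.34 to 1.44 without each library, and 5 to 6 of the 13 shares within the set were free of overlap. No paired analysis was possible because the groups share no replicate numbers. Genes under about 0.4 CPM, such as most transfer RNAs, were too shallow to compare.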

Other observations

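Within KO, replicates 5 and 6 lay above replicates 7 and 8 for most mitochondrial genes. Over the 13 genes, the mean log2 distance from the average of all libraries was 0.31 in KO replicate 5 and 0.38 in replicate 6, and 0.14 and 0.13 in replicates 7 and 8. In WT it was -0.11, -0.23, -0.13 and -0.49 in replicates 13 to 16. The same mean over the 29 nuclear factors stayed between -0.03 and 0.04 in all 8 libraries. COX3, ND3 and ND6 did not follow this order in KO. COX3 measured 1532 and 1468 CPM in KO replicates 5 and 6 and 1519 and 1426 CPM in replicates 7 and 8, ND3 measured 40.8 and 44.99 CPM and then 43.0 and 44.3 CPM, and ND6 measured 33.1 and 39.2 CPM and then 28.7 and 33.9 CPM.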
